A study of Homo sapiens with 12 samples.

Results

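HepG2 cells given sorafenib and nobiletin together were compared with HepG2 cells given vehicle, across every gene of the count table. The libraries were chosen by their treatment labels and make up 6 of the 12 of the study: 3 of vehicle (Control) and 3 of 2 µM sorafenib plus 5 µM nobiletin (SOR+NOB). The other 6 are 3 with 5 µM nobiletin alone (NOB) and 3 with 2 µM sorafenib alone (SOR), and their values are set beside those of the combination where they show how it differs from its components. All groups are the same HepG2 line in the same serum-supplemented medium. The labels used here do not name the vehicle or the time of exposure, and do not say whether the 3 libraries of a group came from separate cultures. The p-values therefore measure only the spread between libraries of a group, estimated over all 12 libraries.

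HepG2 is a cell line from a human liver tumour that secretes many plasma proteins and carries an activating mutation of NRAS. Sorafenib inhibits RAF kinases and several receptor tyrosine kinases. RAF passes the signal of growth factor receptors to MEK and ERK, and ERK raises both early response genes and its own feedback inhibitors of the DUSP, SPRY and SPRED families. Nobiletin, a citrus flavonoid with many methoxy groups, is known in mice as a ligand of the ROR nuclear receptors, which act on the circadian clock.

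The table lists 58735 genes, and 17115 of them had enough counts to be tested. Total counts were 21057154 to 23120392 in Control and 17945656 to 22571151 in SOR+NOB. The first SOR+NOB library stood apart from the other SOR+NOB libraries: 20138 genes had a count in it against 22542 and 23356, its difference from them in counts was 19.3 to 27.6 times what sampling allows against 5.58 between those 2, and it was relatively poorer in short protein-coding genes (median log2 difference -0.10 in the shortest of 4 length classes and 0.10 in the longest). Values without it are given where they change a count by more than 1.5 times. All 8 hepatocyte markers looked at were above 1 CPM in both groups (CPM, counts scaled to a common TMM-adjusted library size). They summed to 40251 to 42290 CPM in Control and 26729 to 30362 CPM in SOR+NOB, with 3 called higher and 5 lower. APOB alone went from 19331 to 7310 CPM, and ALB and SERPINA1 were among the higher. Of 8 cholangiocyte markers 5 were above 1 CPM in both groups. These 8 summed to 632 to 655 CPM in Control and 446 to 467 CPM in SOR+NOB, with KRT7 at no count. Leukocyte markers summed to 600 to 625 CPM in Control and 210 to 230 CPM in SOR+NOB, nearly all of it from LYZ (609 and 221 CPM), while PTPRC, CD3E, MS4A1 and CD163 had no count. Fibroblast markers summed to 34.4 to 37.5 and 20.4 to 24.7 CPM with DCN and LUM at no count, and endothelial markers to 12.8 to 17.5 and 5.75 to 7.64 CPM with KDR, TEK, EMCN and CLEC4G at no count. In bulk RNA, fewer cells with a transcript and less of it per cell cannot be told apart, and CPM shows shares of the RNA and not amounts per cell.

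The combination moved most of the measured transcriptome. Of the 17115 genes tested, 10981 differed between SOR+NOB and Control at adjusted p under 0.05 (64.2%, edgeR quasi-likelihood test, Benjamini-Hochberg adjustment), with 5506 higher (32.2%) and 5475 lower (32%). The CPM of the 2 groups did not overlap in 11318 genes (66.1%), and 10390 of these were also called. The sizes were uneven: 1698 genes rose by at least 2-fold (9.92%) and 2755 fell by at least 2-fold (16.1%), while 425 rose and 1106 fell by at least 4-fold and 66 rose and 167 fell by at least 16-fold. Among the called genes 3736 differed by less than 1.5-fold. The median log2 fold change (log2FC) of all tested genes was -0.02. Below, changes with ± are log2FC and SE of SOR+NOB against Control unless another pair is named, and levels with ± are mean and SD of 3 libraries. From SOR, the combination differed in 10785 genes (63%), and from NOB in 10387 (60.7%).

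**Figure D1:**
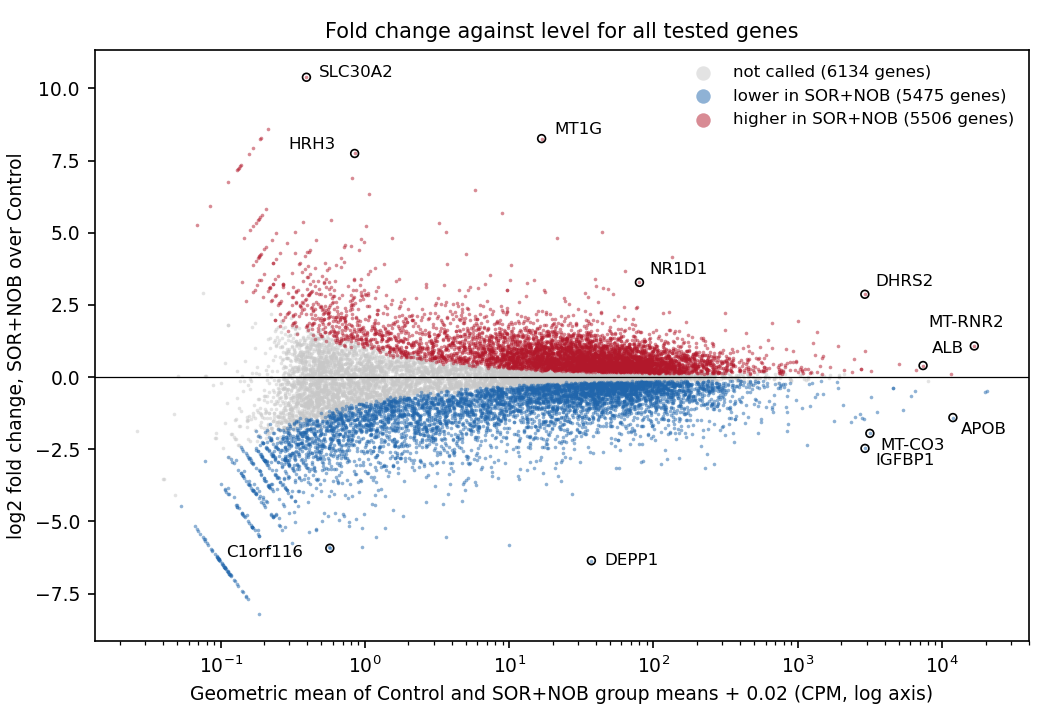
Each point is 1 of the 17115 tested genes, with its level across both groups on the x axis (CPM, log scale, 0.02 added) and the log2 fold change of SOR+NOB over Control on the y axis. The 5506 red genes were called higher and the 5475 blue genes lower, and circled genes are described in the text.

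Steep rises were seen in genes that answer to zinc and other metals. Metallothioneins are small cysteine-rich proteins that bind zinc and copper, and SLC30A1 and SLC30A2 are zinc exporters of the cell surface and of intracellular vesicles. MT1X had 1.06, 1.71 and 0.964 CPM in Control and 44.0, 77.8 and 68.6 CPM in SOR+NOB. All SOR+NOB libraries exceeded all Control libraries, and the fold change was 52.6-fold (95% counting interval 42.2 to 66.3, adjusted p = 4.15e-11, edgeR). SLC30A2 had no count in any Control, NOB or SOR library and 6.65, 10.3 and 6.20 CPM in SOR+NOB. MT1E rose by 5.04 ± 0.13 and MT1F by 3.52 ± 0.19 on the log2 scale. In SOR alone MT1E stood below Control (1.99 against 7.60 CPM), and it was 15.1 CPM in NOB and 251 CPM in SOR+NOB. Of 12 tested genes of the metal list 8 were higher and 2 lower, with a median log2FC of 3.84. The zinc and manganese exporter SLC30A10 and the zinc importer SLC39A10 were the lower genes (-0.88 ± 0.10 and -0.41 ± 0.07), and the level of MTF1, the zinc sensor that binds metal response elements, was 16.7 CPM in Control and 18.2 CPM in SOR+NOB (adjusted p = 0.336, edgeR). Metallothionein genes are near-identical copies of each other, and how reads shared between them were counted is not given in the sources used here, so the split among them is uncertain.

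Upstream sequence of MT1X and SLC30A2 is shown because metal response elements carry the core TGCNCNC, in capitals on either strand. The sequences are from RefSeq (GRCh38.p14), and each is the longest stretch with no annotated exon in the 250 bases before the RefSeq start of transcription, so it can stop short of that start: MT1X is chr16:56682220-56682423, plus strand, and SLC30A2 is chr1:26046134-26046368, minus strand.
MT1X: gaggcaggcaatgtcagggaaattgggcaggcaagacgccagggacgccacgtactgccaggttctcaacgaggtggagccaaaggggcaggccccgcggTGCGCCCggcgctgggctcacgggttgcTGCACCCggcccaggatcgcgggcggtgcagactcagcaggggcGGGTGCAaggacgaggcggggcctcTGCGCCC
SLC30A2: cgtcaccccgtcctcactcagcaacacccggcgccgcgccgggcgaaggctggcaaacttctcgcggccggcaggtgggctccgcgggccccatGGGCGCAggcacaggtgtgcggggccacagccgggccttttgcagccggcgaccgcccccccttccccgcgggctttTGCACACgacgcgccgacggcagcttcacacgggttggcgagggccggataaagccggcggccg
MT1X holds 4 matches in the stretch printed and SLC30A2 holds 2. Over all 27305 promoters of the RefSeq table, 48.4% hold at least 1 match in the 250 bases before the start and 1.70% hold at least 4, so a single match is common. A match describes letters only.

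Most of the other coding genes named for a large rise had few counts in vehicle-treated cells, which a ranking by fold change favours. NEURL3, a ubiquitin ligase, had 0.484, 0.712 and 0.597 CPM in Control and 47.5, 61.1 and 52.1 CPM in SOR+NOB, a 91.0-fold rise (counting interval 66.4 to 128). It was 0.353 CPM in NOB and 1.51 CPM in SOR, so neither compound alone brought it near the level in SOR+NOB (log2FC 7.20 ± 0.21 against NOB and 5.12 ± 0.17 against SOR). HRH3, the histamine H3 receptor, went from 3 counts in the 3 Control libraries to 710 counts in SOR+NOB (244-fold, interval 83.2 to 1187), and ANKRD33B from 4 to 515 counts (133-fold, interval 51.6 to 489). PCLO, which encodes the presynaptic scaffold piccolo, rose by 5.35 ± 0.30 and ALOX5AP, which encodes the protein that hands arachidonic acid to 5-lipoxygenase, by 5.25 ± 0.45 on the log2 scale. TBX4, a T-box transcription factor of limb and lung development, rose by 4.82 ± 0.34, and ATOH8, a helix-loop-helix factor, by 4.78 ± 0.62. The 3 Control libraries together held 3 to 39 counts of each of these genes, so the sizes of their rises are imprecise.

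By amount of RNA, the gene that gained most among protein-coding genes was DHRS2, a mitochondrial short-chain dehydrogenase (ENSG00000100867, chr14:23630115-23645639 on GRCh38). It had 1072, 1083 and 1083 CPM in Control and 7053, 8572 and 8039 CPM in SOR+NOB. The groups were far apart beside their spread, and the log2FC was 2.87 ± 0.06 (adjusted p = 3.48e-20, edgeR). NOB alone held 1955 ± 34.9 CPM (SD, n = 3) and SOR alone 1241 ± 33.1 CPM, and the combination exceeded them by 2.01 ± 0.06 and 2.67 ± 0.06 on the log2 scale. NOTUM, a secreted enzyme that inactivates Wnt proteins, rose from 794 ± 33.6 to 2331 ± 416 CPM, against 1479 CPM in NOB and 666 CPM in SOR. ALB, which encodes albumin, and SERPINA1, which encodes alpha-1-antitrypsin, rose by 0.40 ± 0.06 and 0.44 ± 0.06. For ALB the single compounds lay on either side of Control: 3094 CPM in NOB, 6428 in Control, 8481 in SOR+NOB and 21066 in SOR.

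Among coding genes that averaged 2 CPM or more, DEPP1, a FOXO-regulated gene (ENSG00000165507, chr10:44970981-44978810), fell most. It had 344, 348 and 321 CPM in Control and 3.35, 4.98 and 3.85 CPM in SOR+NOB. Both single compounds lowered it as well, to 88.1 ± 2.33 CPM in NOB and 31.9 ± 1.06 CPM in SOR, and the combination was lower than either (-4.42 ± 0.09 and -2.96 ± 0.10) on the log2 scale (adjusted p = 8.29e-20 and 6.99e-17, edgeR). F13B, the B subunit of coagulation factor XIII, had 7.43, 6.79 and 6.29 CPM in Control and 0.165, 0.172 and 0 CPM in SOR+NOB. It was 7.29 CPM in SOR and 0.590 CPM in NOB, so the level in SOR overlapped Control while that in NOB was low. C1orf116 fell from 273 to 4 counts (66.2-fold, interval 25.5 to 245). The angiopoietin-like ANGPTL1 fell (-5.83 ± 0.12), the leukocyte myosin MYO1G (-5.25 ± 0.50) and the urate and organic anion transporter SLC17A3 (-5.18 ± 0.45) on the log2 scale. Further falls past 16-fold among the 12 largest were in FJX1, PPP2R2C, GALNT3, which starts mucin-type O-glycosylation, PLSCR5, LFNG, a Notch-modifying glycosyltransferase, and EDN1, the precursor of endothelin-1, with log2FC of -5.02, -4.73, -4.40, -4.39, -4.34 and -4.12.

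By amount, the largest losses included abundant liver and matrix transcripts and the mitochondrial mRNA MT-CO3, which is described below. APOB, which encodes the scaffold of very low density lipoprotein, had 20052, 18667 and 19275 CPM in Control and 8685, 6226 and 7018 CPM in SOR+NOB. The groups did not overlap, and the log2FC of -1.40 ± 0.08 compares with -0.80 ± 0.08 in NOB and -0.29 ± 0.08 in SOR, each against the same Control libraries. IGFBP1, an insulin-like growth factor binding protein, fell from 6882 ± 254 to 1242 ± 102 CPM. In SOR alone it was lower still, 678 ± 4.28 CPM, and the combination exceeded SOR by 0.87 ± 0.05 on the log2 scale (adjusted p = 2.57e-12, edgeR). FN1, which encodes fibronectin, fell (-0.50 ± 0.05) and AFP, which encodes fetal alpha-fetoprotein, (-1.14 ± 0.06), from 7973 ± 295 to 3615 ± 465 CPM.

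**Figure D2:**
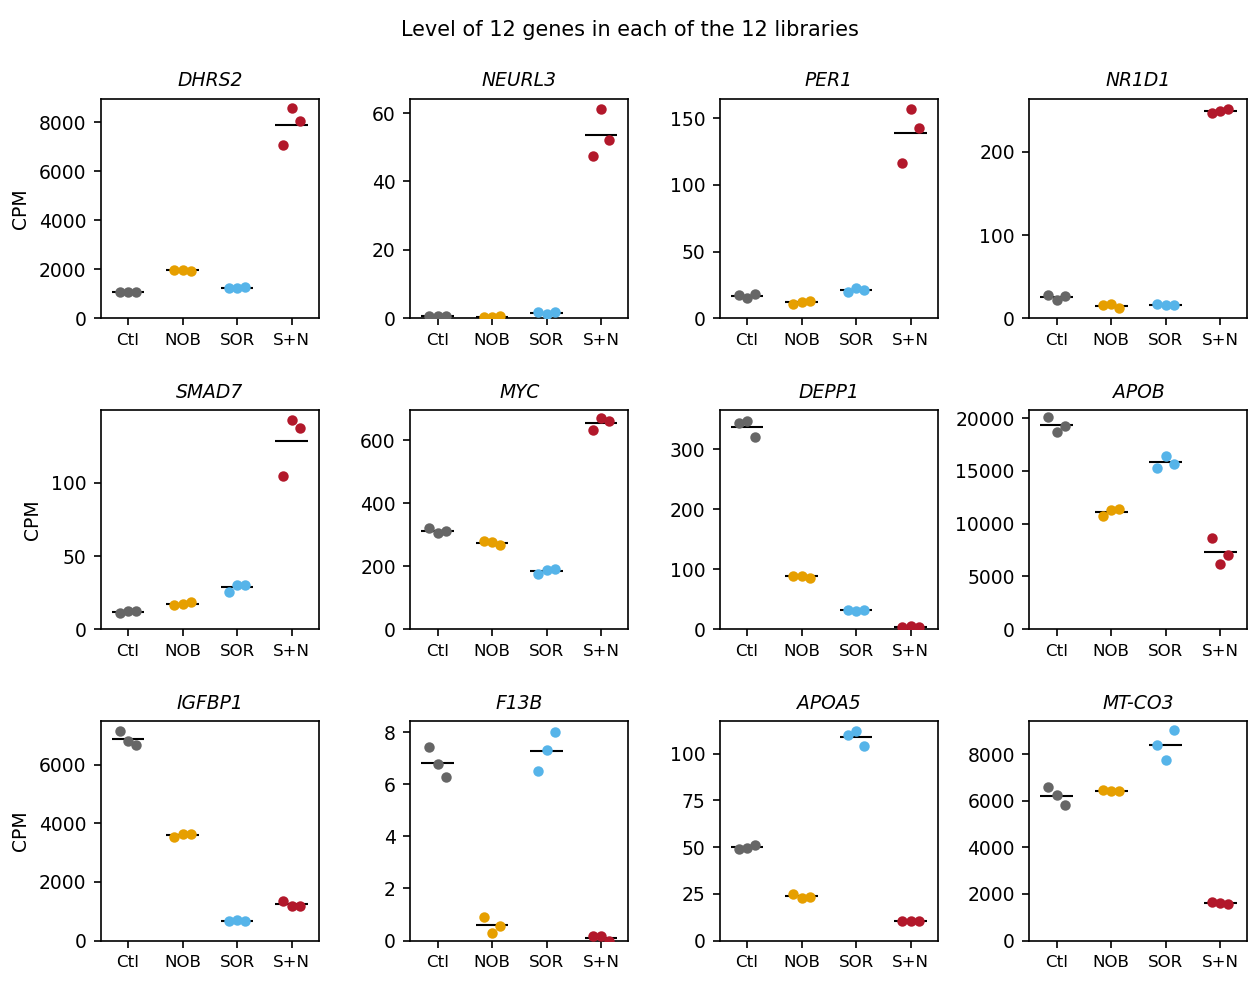
The level (CPM, linear axis from 0) of 12 genes in each of the 12 libraries, 3 points a group with a bar at the mean. DHRS2, NEURL3, PER1, NR1D1, SMAD7 and MYC are highest in SOR+NOB (S+N), DEPP1, APOB, F13B, APOA5 and MT-CO3 are lowest there, and IGFBP1 is lowest in SOR.

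The members of 59 gene lists were counted against these backgrounds of 32.2% higher and 32% lower. For each compound alone against the same Control libraries, 18.9% of tested genes were higher and 19.2% lower in NOB, and 21.7% were higher and 19.3% lower in SOR. Genes of DNA synthesis were higher throughout. All 26 tested members of the replication list were called higher, with a median log2FC of 1.35 (all tested genes -0.02). The median was 0.90 in NOB and 0.74 in SOR, with 26 and 24 members called higher there. CDC45, which joins the replicative helicase, had 1.94, 2.33 and 1.97 CPM in Control and 15.6, 17.4 and 19.6 CPM in SOR+NOB. The groups were far apart, NOB and SOR were at 8.21 and 3.78 CPM, and the combination exceeded them by 1.10 ± 0.17 and 2.23 ± 0.18 on the log2 scale. The origin factor MCM10 rose by 3.01 ± 0.16, the thymidine kinase TK1 by 2.29 ± 0.12 and the helicase subunit MCM6 by 1.87 ± 0.12. Small rises were those of the DNA polymerase subunits POLE and POLD1 (0.24 ± 0.08 and 0.26 ± 0.09), whose calls were lost under some alternative settings, where 23 to 26 of the list were called.

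E2F factors act on many replication genes through sites with the letters TTTNNCGC. Of 23 replication genes with a RefSeq promoter, 11 hold these letters on either strand in the 250 bases before the start (47.8%), against 5.93% of all 27305 promoters. MCM6 (chr2:135876444-135876693, minus strand) and MCM3 (chr6:52284882-52284992, minus strand), subunits of the same helicase that rose by 1.87 ± 0.12 and 0.67 ± 0.06, are shown with matches in capitals (RefSeq, GRCh38.p14).
MCM6: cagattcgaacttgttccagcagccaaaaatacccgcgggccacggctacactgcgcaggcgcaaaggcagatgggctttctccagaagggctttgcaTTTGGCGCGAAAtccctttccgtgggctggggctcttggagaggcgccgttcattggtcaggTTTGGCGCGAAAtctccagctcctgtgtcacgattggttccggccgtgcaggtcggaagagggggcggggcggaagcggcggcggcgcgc
MCM3: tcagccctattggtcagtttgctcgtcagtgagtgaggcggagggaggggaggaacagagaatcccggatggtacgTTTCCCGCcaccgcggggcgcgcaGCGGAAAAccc
In MCM6 the matches come as 2 overlapping pairs, with 1 match on each strand in a pair. MCM3 holds 2 separate matches. CDC45, MCM10 and TK1, named above for their rises, hold no match, and POLE, with a small rise, holds 1. Whether a match goes with a rise was not tested. Of 23 promoters of the mitosis list 2 hold the E2F letters (8.70%).

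Genes of mitosis parted from those of replication. In NOB and in SOR all 28 members of the mitosis list were higher than Control, with medians of 1.48 and 1.22. In SOR+NOB 21 were higher, 2 lower (1 without the second Control library) and 5 not called, with a median of 0.74. The cyclin CCNA2, the kinase CDK1 and the spindle factor TPX2 had rises in SOR+NOB (1.80 ± 0.10, 1.56 ± 0.11 and 1.33 ± 0.07) close in size to those in NOB (1.66, 1.61 and 1.31) and SOR (1.88, 1.53 and 1.15). MKI67, the Ki-67 proliferation marker, did not follow: it had 27.4, 29.2 and 32.0 CPM in Control and 34.2, 29.2 and 33.2 CPM in SOR+NOB, and 88.0 and 68.2 CPM in NOB and SOR. The Control and SOR+NOB libraries overlapped (log2FC 0.12 ± 0.08, adjusted p = 0.164, edgeR), and SOR+NOB was below NOB (-1.45 ± 0.07) and below SOR (-1.09 ± 0.07). The mitotic cyclin CCNB1 was 13.7 CPM in Control, 16.3 in SOR+NOB, 48.3 in NOB and 40.5 in SOR. CENPF, a kinetochore protein, and KIF20A, a kinesin of cytokinesis, were below Control in SOR+NOB (-0.22 ± 0.08 and -0.44 ± 0.11) and above it in NOB (1.30 ± 0.08 and 1.16 ± 0.10) and SOR (0.93 ± 0.08 and 1.32 ± 0.10). The small fall of CENPF and the small rise of CCNB1 (0.24 ± 0.10) against Control were not called under several alternative settings.

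DNA repair genes were higher in 17 of 21 and lower in 1 (median 0.92), among them the checkpoint kinase CHEK1 (2.02 ± 0.11), the nuclease EXO1 (2.48 ± 0.19) and BRCA1 (1.62 ± 0.11). Of 20 genes of G1 control 11 were higher and 4 lower, with E2F1 up by 1.88 ± 0.10 and the cyclin-dependent kinase CDK6 down (-0.9966 ± 0.07). GADD45A, a growth arrest gene, had 52.8, 52.6 and 56.2 CPM in Control and 219.9, 285 and 248 CPM in SOR+NOB. The groups were apart by more than the whole spread within either, and NOB and SOR lay near Control (54.9 and 46.8 CPM). The ubiquitin ligase MDM2 rose by 0.59 ± 0.07 and the CDK inhibitor CDKN1A by 0.48 ± 0.08. Apoptosis regulators were split, 6 higher and 6 lower of 21: the BH3-only gene BMF fell (-2.76 ± 0.09), and PMAIP1, which encodes the BH3-only protein NOXA, and the inhibitor BIRC3 rose by 2.18 ± 0.34 and 1.86 ± 0.15. Without the first SOR+NOB library 9 of the 21 were higher and 7 lower. Of 17 histone genes 8 were higher and 3 lower (1 lower without the first Control library), led by the linker histone HIST1H1C (15.3 ± 1.96 to 129.9 ± 12.3 CPM), by HIST1H2AC (2.39 ± 0.08) and by the replacement histone H3F3B (349 to 1265 CPM). HIST1H1C stood at 9.14 CPM in NOB and 10.8 CPM in SOR.

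The readout of the pathway that sorafenib inhibits was mixed in the combination. In SOR 18 of 22 genes of ERK output and feedback were lower and 1 higher than Control (median -1.03), and in SOR+NOB 11 were lower and 7 higher (median -0.32). DUSP6, a phosphatase that inactivates ERK, had 115, 109 and 117 CPM in Control and 36.6, 36.3 and 33.5 CPM in SOR+NOB. The groups did not overlap, and the level in SOR was close to that in SOR+NOB (30.3 ± 0.483 and 35.5 ± 1.69 CPM, difference 0.23 ± 0.06 on the log2 scale, adjusted p = 0.00388, edgeR), while NOB was at 179 ± 4.74 CPM. The feedback inhibitor SPRED2 and the ERK-dependent factor ETV4 were lower in SOR+NOB (-1.18 ± 0.06 and -0.94 ± 0.05) than in either single compound (-0.55 and -0.30 in NOB, -0.72 and -0.56 in SOR, log2FC against the same Control). SPRY4, another feedback inhibitor, was at 76.3 CPM in SOR+NOB, between SOR (24.6) and Control (92.4). DUSP5, a nuclear ERK phosphatase, went the other way: it was 4.42 CPM in Control, 0.565 in SOR and 21.0 in SOR+NOB, where it exceeded Control by 2.25 ± 0.20.

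MYC, a growth-promoting transcription factor, had 322, 305 and 312 CPM in Control and 633, 671 and 661 CPM in SOR+NOB. All SOR+NOB libraries were above all Control libraries (log2FC 1.07 ± 0.05, adjusted p = 4.20e-14, edgeR), whereas SOR was below Control at 186 ± 8.84 CPM and NOB at 275 ± 6.24 CPM. Of 15 early response transcription factors 7 were higher and 5 lower in SOR+NOB, against 1 and 11 in SOR (on the deposited FPKM, 2 of those tested were lower). JUN, KLF10 and the stress-induced ATF3 were higher in the combination (1.49 ± 0.08, 1.70 ± 0.09 and 1.98 ± 0.10), and JUN and KLF10 were lower in SOR (-0.89 ± 0.08 and -0.89 ± 0.10). IER2 fell (-1.93 ± 0.09) in SOR+NOB. EGR1, a direct ERK response gene, was 93.6 CPM in Control, 137 in NOB, 31.7 in SOR and 118 in SOR+NOB. Of 15 growth factor receptors and RAF kinases 11 were lower and 2 higher (median -0.80): PDGFRB, a receptor that sorafenib inhibits, fell from 23.5 ± 0.690 to 2.44 ± 0.462 CPM, NRP1, a co-receptor for VEGF, (-1.79 ± 0.09), ERBB3 (-1.43 ± 0.05) and IGF1R (-1.09 ± 0.06). In the single compounds ERBB3 and IGF1R had log2FC nearer 0 (-0.16 and -0.69 in SOR, 0.16 and -0.27 in NOB).

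**Figure D3:**
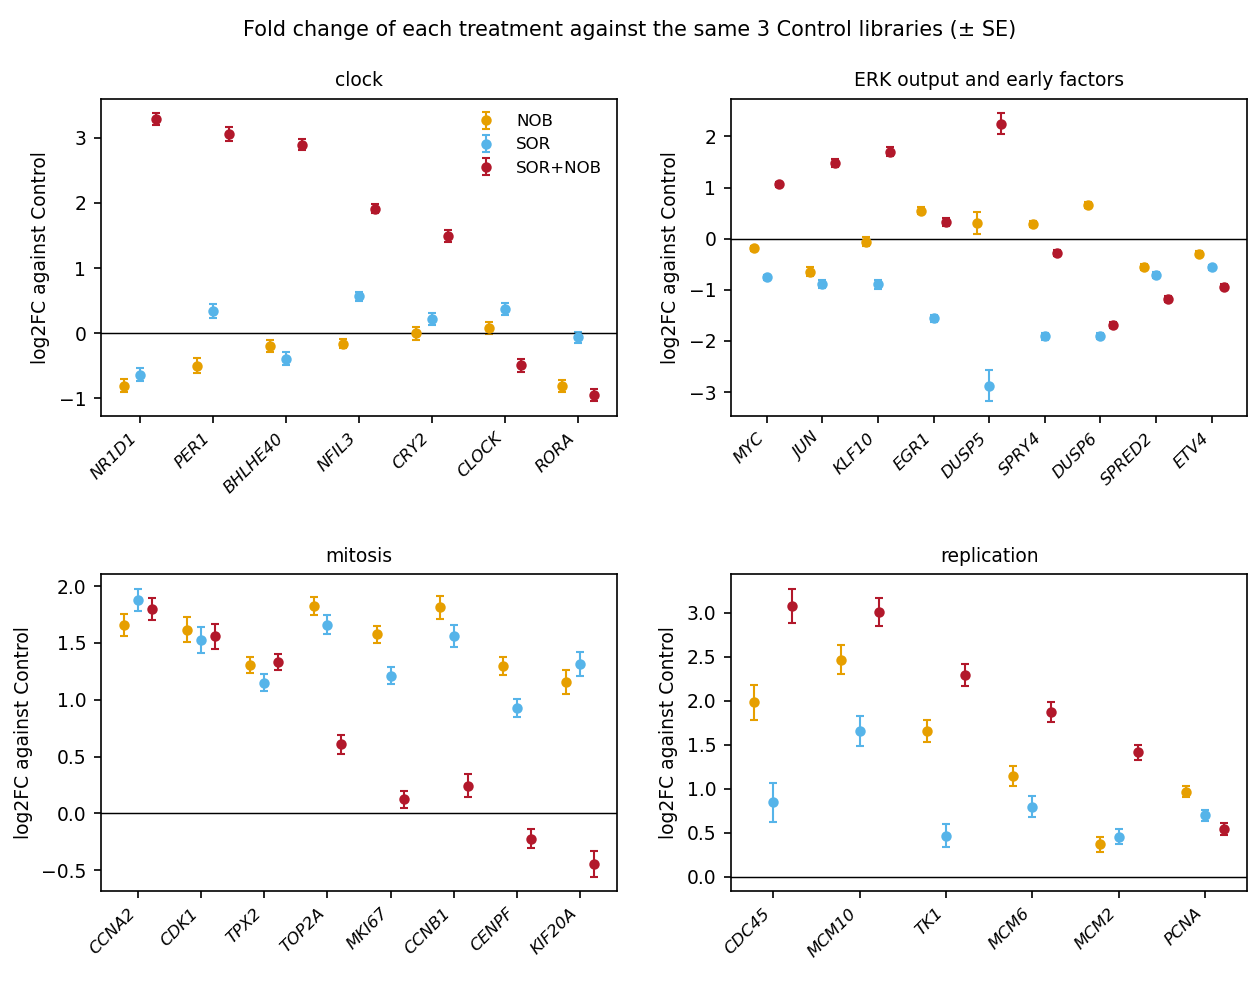
The log2 fold change of NOB, SOR and SOR+NOB (points, ± SE) against the same 3 Control libraries for genes of the clock, of ERK output with early factors, of mitosis and of replication. NR1D1, PER1 and BHLHE40 are at 3.28, 3.05 and 2.89 in SOR+NOB and at most 0.34 in the single compounds, and MKI67, CCNB1, CENPF and KIF20A lie far lower in SOR+NOB than in NOB and SOR.

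The circadian clock list moved in every tested member. Of 18 genes 12 were higher and 6 lower in SOR+NOB (median 0.53), against 2 and 8 in NOB (median -0.32) and 6 and 3 in SOR (median 0.18). NR1D1, the repressor REV-ERB alpha, had 27.8, 22.4 and 26.7 CPM in Control and 247, 249.5 and 252 CPM in SOR+NOB. The 3 SOR+NOB libraries lay close together and far above Control, while NOB and SOR were both below Control (14.7 ± 2.31 and 16.4 ± 1.10 CPM). The combination exceeded NOB by 4.09 ± 0.10 and SOR by 3.92 ± 0.10 on the log2 scale (adjusted p = 5.83e-19 and 5.42e-19, edgeR). PER1, which represses CLOCK and ARNTL, had 17.3, 15.0 and 17.8 CPM in Control and 116.2, 157 and 143 CPM in SOR+NOB. No SOR+NOB library came near the Control range, and NOB and SOR were at 11.8 and 21.2 CPM. The repressor BHLHE40 rose by 2.89 ± 0.09, NFIL3 by 1.91 ± 0.07, CRY2 by 1.495 ± 0.09, NR1D2 by 1.09 ± 0.10 and the activator ARNTL by 1.18 ± 0.20. RORA, a ROR receptor, fell (-0.95 ± 0.09), and CLOCK (-0.49 ± 0.10). PER2 and PER3, which NOB lowered (-0.81 ± 0.09 and -1.33 ± 0.19), stood at log2FC of 0.32 ± 0.09 and -0.51 ± 0.18 in the combination, and the call of PER3 was lost in some fits that left out a library. The libraries carry no time of day, so level and phase cannot be told apart.

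Of 16 tested NF-kB and inflammation genes 9 were higher and 5 lower in SOR+NOB, against 0 and 10 in NOB and 2 and 10 in SOR (on the deposited FPKM, 5 were higher). NFKBIA, which holds NF-kB in the cytoplasm, rose from 73.6 ± 3.06 to 225 ± 15.0 CPM and TNFAIP3, the ubiquitin-editing inhibitor A20, from 108 ± 0.756 to 226 ± 8.27 CPM. The subunits RELB and NFKB2 rose by 1.79 ± 0.14 and 1.06 ± 0.10, and BCL3, a nuclear partner of NF-kB, from 13.5 ± 0.916 to 92.3 ± 5.24 CPM. The chemokine CCL20, mitochondrial superoxide dismutase SOD2 and the interleukin-1 antagonist IL1RN fell (-2.31 ± 0.06, -1.73 ± 0.05 and -2.15 ± 0.08), and all 3 were lower in NOB and SOR too (CCL20 at 64.5 and 63.5 CPM against 185 in Control). SOCS1, an inhibitor of JAK kinases, had 14.6, 14 and 16.4 CPM in Control and 0.770, 2.23 and 2.45 CPM in SOR+NOB. The fall of SOCS1 separated the groups fully, and it was 10.3 CPM in NOB and 18.2 CPM in SOR.

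Of 18 tested iron and heme genes 11 were higher and 4 lower (median 0.50). SMAD7, which blocks BMP and TGF-beta receptors, had 11.3, 12.3 and 12.7 CPM in Control and 105, 143 and 137 CPM in SOR+NOB. All SOR+NOB libraries lay above all others, and the combination exceeded SOR by 2.17 ± 0.10 and NOB by 2.88 ± 0.11. The BMP targets ID3 and ID1 rose by 2.14 ± 0.12 and 0.83 ± 0.05, and SMAD6 was 7 CPM in Control and 8.59 in SOR+NOB (adjusted p = 0.0770, edgeR). ALAS1, the first enzyme of heme synthesis, rose by 1.73 ± 0.07 and the transferrin receptor TFRC by 1.27 ± 0.05, the latter to 355 CPM against 396 in NOB and 366 in SOR. HMOX1, which breaks heme down, fell from 28.2 ± 3.66 to 6.83 ± 1.10 CPM. It was lower still in NOB (3.71 ± 0.421 CPM) and above Control in SOR (36.0 ± 0.971 CPM).

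Genes of the proteasome, aminoacyl-tRNA synthetases and chaperones of the endoplasmic reticulum were mostly higher. Of 24 proteasome subunits 20 were higher and none lower (median 0.57), led by PSMD14 (1.44 ± 0.08), PSMD2 (1.09 ± 0.05) and PSMB3 (1.08 ± 0.07). The median was 0.21 in NOB and 0.15 in SOR. Of 20 aminoacyl-tRNA synthetases, which charge tRNAs, 16 were higher and 2 lower (median 0.43), with GARS and VARS up by 0.93 ± 0.06 and 0.85 ± 0.06, against 2 higher and 8 lower in SOR. Of 22 chaperones and unfolded-protein genes of the endoplasmic reticulum 16 were higher and 2 lower (median 0.56), between NOB (20 and 1, median 0.87) and SOR (3 and 12, median -0.23). PDIA4, a disulfide isomerase, was 378 CPM in Control, 476 in SOR, 783 in SOR+NOB and 1025 in NOB, and HSPA5, the chaperone BiP, 1162, 978, 1942 and 2257 CPM in the same order. Cytosolic ribosomal protein genes moved little: 13 of 32 were higher and none lower (median 0.11), counts that were 21 and 1 without the first SOR+NOB library, 8 and 0 without the third Control library and 7 and 2 under upper quartile scaling.

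Stress programmes did not move as blocks. Of 26 genes of the ATF4 pathway, which answers to amino acid shortage and other stress, 10 were higher and 12 lower. GDF15, a secreted stress signal, had 511, 525 and 505 CPM in Control and 1795, 2129.6 and 1984 CPM in SOR+NOB. All SOR+NOB libraries were above Control, and NOB and SOR were below it (369 and 185 CPM). CEBPG rose by 1.61 ± 0.06, ASNS, which makes asparagine, by 1.27 ± 0.12 and DDIT3 by 0.81 ± 0.08, while ATF4 itself fell (-0.33 ± 0.05). Of 17 amino acid transporters 11 were lower and 4 higher. SLC38A2, a glutamine and alanine carrier, fell from 2606 ± 68.7 to 508 ± 54.9 CPM and the aromatic amino acid carrier SLC16A10 (-2.87 ± 0.08). The partners of the cystine exchanger went opposite ways, SLC7A11 down (-1.77 ± 0.07) and SLC3A2, which also partners other carriers, up by 1.51 ± 0.05. Of 20 heat shock genes 10 were higher and 4 lower, against 0 and 11 in NOB and 1 and 14 in SOR. HSPA8, the constitutive cytosolic HSP70, had 1584, 1499 and 1444 CPM in Control and 509, 479 and 477 CPM in SOR+NOB, and its groups did not overlap. HSPA1B, an inducible HSP70 with a near-identical copy whose shared reads make its count uncertain, rose by 1.27 ± 0.09.

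Of 26 NRF2 targets and glutathione genes 16 were higher and 8 lower (median 0.33). NFE2L2, which encodes NRF2, rose by 1.65 ± 0.07 and thioredoxin reductase TXNRD1 by 1.18 ± 0.05. AKR1C1, an aldo-keto reductase with close copies, fell (-1.21 ± 0.05). Of 25 autophagy and lysosome genes 13 were higher and 5 lower (3 lower without the second Control library), with the proton pump subunit ATP6V1H up by 1.34 ± 0.07 and the autophagosome protein MAP1LC3B by 0.72 ± 0.06.

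The mitochondrial genome's own transcripts split by kind. Its 13 mRNAs encode subunits of the respiratory chain and ATP synthase, and its rRNAs and tRNAs serve the mitochondrial ribosome. Both rRNAs rose: MT-RNR2, the large rRNA, had 12003, 11440.1 and 11085 CPM in Control and 26692, 22662 and 23572 CPM in SOR+NOB, and MT-RNR1 rose by 0.89 ± 0.05. Of the 13 mRNAs 12 fell and none rose (median -1.28), and 13 fell without the first SOR+NOB library. MT-CO3, part of respiratory complex IV, had 6589, 6238 and 5804 CPM in Control and 1661, 1597 and 1565 CPM in SOR+NOB, and no library of one group came near the other. MT-ND3 fell (-1.88 ± 0.08) and MT-CYB (-1.52 ± 0.08), MT-CO1 fell less (-0.51 ± 0.09), and MT-ND4 was 8902, 8266 and 7961 CPM in Control and 9974, 6384 and 6657 CPM in SOR+NOB, which overlap. MT-ND4 was called lower without the first SOR+NOB library. In SOR 11 of the 13 mRNAs were above Control (median 0.49). Outside the mitochondrial genome, nuclear rRNA rose as a share of all counts too, from 7.38e-05% in Control to 0.0022% in SOR+NOB. Small nuclear and nucleolar RNA went from 0.00867% to 0.0128%. The labels name both poly(A) capture and rRNA removal, and whether library preparation bears on the rRNA counts was not tested.

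Of 22 mitochondrial tRNA genes 17 passed the filter, and 16 of these fell and none rose (median log2FC -3.59). Their share of all counts went from 0.0538% ± 0.0013 in Control to 0.0194% ± 0.0008 in SOR+NOB (SD, n = 3), groups that did not overlap (exact two-sided permutation p = 0.1, the smallest that 3 against 3 libraries can give). MT-TC and MT-TN, the most counted, fell (-2.18 ± 0.20 and -1.97 ± 0.08). MT-TP did not fall: it was 91.0, 82.9 and 78.6 CPM in Control and 106, 73.6 and 88.5 CPM in SOR+NOB. Whether these counts come from mature tRNAs or from precursors was not tested.

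Nuclear genes of the same organelle were mostly higher. Of 32 respiratory chain genes 23 were higher and 1 lower (median 0.36), with SDHB, the iron-sulfur subunit of succinate dehydrogenase, up by 1.24 ± 0.08 and NDUFA4 by 0.70 ± 0.06. Of 28 mitochondrial ribosomal proteins 21 were higher and 4 lower (median 0.42), with MRPL13 and MRPS10 up by 1.41 ± 0.10 and 1.35 ± 0.08. The 23 genes that copy and process mitochondrial RNA went both ways, 10 higher and 8 lower: the polymerase POLRMT rose by 0.84 ± 0.06 and MTERF3, a repressor of mitochondrial transcription, by 1.65 ± 0.12, and TWNK, the mitochondrial DNA helicase, and TRMT10C, part of the enzyme that cuts tRNAs from the precursor at the 5′ end, fell (-1.45 ± 0.09 and -1.21 ± 0.12). TRMT10C had 21.9, 21.2 and 21.5 CPM in Control and 11.7, 7.72 and 8.69 CPM in SOR+NOB, against 18.9 CPM in NOB and 19.99 CPM in SOR. The groups did not overlap, and the level in the single compounds was near Control.

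**Figure D4:**
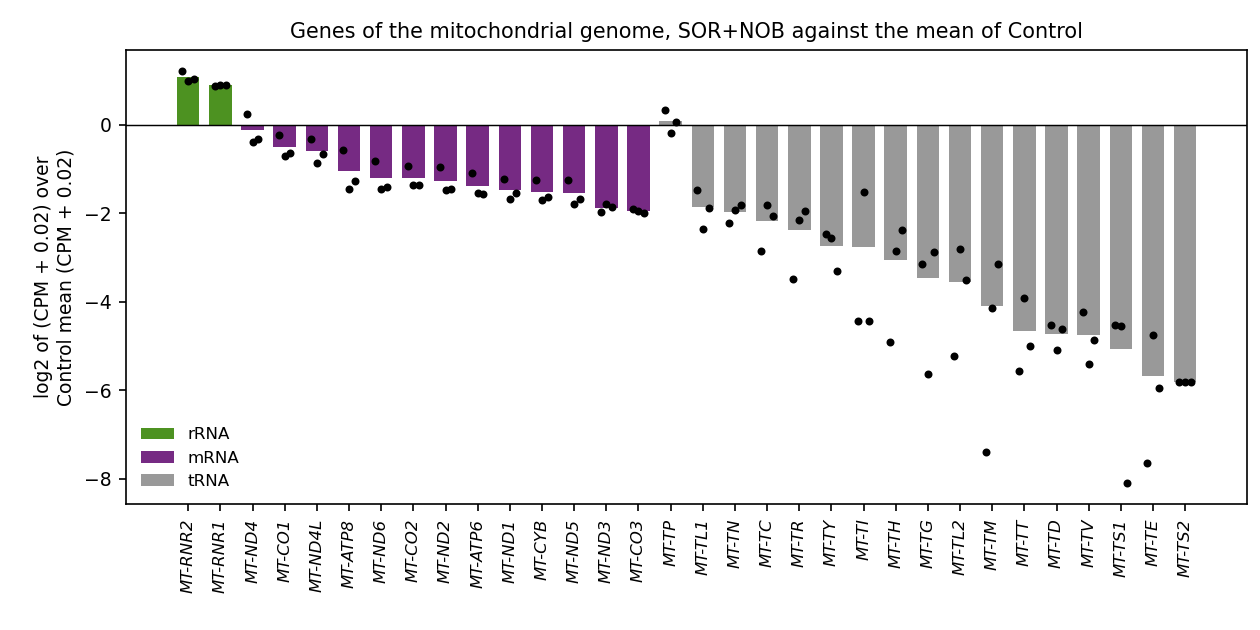
Genes of the mitochondrial genome on the x axis by kind, with the log2 ratio of each SOR+NOB library (points) and of their mean (bars) to the Control mean on the y axis (CPM with 0.02 added). Both rRNAs are above 0, 12 of 13 mRNAs were called lower, and 16 of 17 tRNAs were called lower by up to several log2 units.

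Liver-specific output fell in several classes. Of 22 genes of coagulation and fibrinolysis 16 were lower and 4 higher in SOR+NOB (median -0.59), whereas in SOR 14 were higher and 4 lower (median 0.54) and in NOB 1 was higher and 15 lower (median -0.46). SERPIND1, the thrombin inhibitor heparin cofactor II, had 716, 683 and 674 CPM in Control and 184, 184 and 177 CPM in SOR+NOB. The groups were far apart, and SOR stood above Control at 1193 ± 33.1 CPM. PROS1, which encodes protein S, fell (-1.95 ± 0.07), the tissue factor inhibitor TFPI (-1.79 ± 0.08) and the fibrinogen chain FGA (-0.98 ± 0.05). Of 17 apolipoproteins and lipoprotein genes 12 were lower and 4 higher (median -0.69), against 4 and 10 in SOR. APOA5, a regulator of plasma triglycerides, was 49.8 CPM in Control, 23.8 in NOB, 109 in SOR and 10.3 in SOR+NOB, and APOH and APOM fell (-1.21 ± 0.06 and -1.10 ± 0.06). For APOA5 the combination was below SOR (-3.40 ± 0.08) and below NOB (-1.21 ± 0.08). Of 20 complement genes 13 were lower and 3 higher (median -0.63), with C5 and CFI down (-1.24 ± 0.07 and -1.40 ± 0.10). Among 19 other secreted liver proteins 9 were lower and 4 higher, and 7 were higher without the first SOR+NOB library: the thyroid hormone carriers SERPINA7 and TTR fell (-2.04 ± 0.07 and -1.46 ± 0.07) and the acute phase protein SERPINA3 (-2.46 ± 0.13).

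Of 15 bile acid genes 10 were lower and 2 higher (median -0.74). CYP7A1, which sets the pace of bile acid production, was 1.495, 1.90 and 1.70 CPM in Control and had no count in any SOR+NOB library, at least 35.9-fold lower (against a floor of 3 counts over the group). SOR held 14.4 CPM and NOB 0.603 CPM. NR0B2, the repressor SHP, fell (-1.76 ± 0.07) and the phospholipid exporter ABCB4 (-1.23 ± 0.07). Of 16 cytochrome P450 genes of families 2 to 4, 8 were lower and 5 higher: CYP3A5 fell (-2.87 ± 0.15) and CYP3A7, the fetal enzyme with close copies, (-3.07 ± 0.32), and CYP4F12 rose by 1.54 ± 0.07. Of 7 tested genes of the aryl hydrocarbon receptor list 4 were higher and 2 lower. Among the higher was ARNT (0.63 ± 0.07), which is the receptor's partner and not a target. CYP1A1, the classical target, was 3.20 CPM in Control, 29.6 in NOB, 1.52 in SOR and 1.28 in SOR+NOB. The combination was below NOB (-4.53 ± 0.18) (adjusted p = 3.32e-15, edgeR). Phase II enzymes were higher in 4 and lower in 6 of 16, with SULT2A1 down (-1.29 ± 0.08), and drug transporters higher in 4 and lower in 7 of 15. SLC22A7, an organic anion carrier, was 2.69 CPM in Control, 39.6 in SOR+NOB, 8.26 in NOB and 92.7 in SOR, and SLC29A1, a nucleoside carrier, rose by 2.00 ± 0.08.

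The list of hepatocyte transcription factors was split, 8 higher and 8 lower of 21. NR2F1, an orphan nuclear receptor, had 90.3, 83.5 and 83.6 CPM in Control and 14.4, 10.3 and 8.83 CPM in SOR+NOB. The groups did not overlap, and NOB and SOR were much closer to Control (65.8 and 72.5 CPM). PROX1 and ONECUT1 fell (-1.77 ± 0.09 and -1.61 ± 0.15), HNF4A fell (-0.52 ± 0.06) and CEBPA rose by 1.11 ± 0.10. Of 17 liver cancer and fetal liver markers 11 were lower and 5 higher: the imprinted gene PEG10 fell from 4574 ± 118 to 1723 ± 192 CPM, LGR5, a Wnt-dependent stem cell receptor, (-1.32 ± 0.07) and GLUL, glutamine synthetase, (-0.9973 ± 0.04). Of 11 genes of the insulin-like growth factor axis 6 were lower and 4 higher, with IRS1 down (-1.06 ± 0.06).

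The rise of cholesterol genes seen in SOR was not seen in the combination. In SOR 21 of 23 cholesterol genes were above Control (median 1.17) and in NOB 15 (median 0.41), while in SOR+NOB 6 were higher and 8 lower (median -0.08). LSS, which closes the sterol ring, had 93.6, 92.1 and 101 CPM in Control and 31.1, 42.7 and 36.3 CPM in SOR+NOB, and 80.5 and 199 CPM in NOB and SOR. The SOR+NOB libraries were below all others, with a log2 difference of -2.44 ± 0.08 from SOR. DHCR7, the last enzyme of one branch of cholesterol synthesis, rose by 0.64 ± 0.06, less than in SOR (1.43 ± 0.06). Of 19 genes of fatty acid and triglyceride synthesis 10 were higher and 5 lower (8 lower under upper quartile scaling). DGAT2, which completes triglycerides, and GPAM, which starts them, fell (-2.33 ± 0.11 and -1.90 ± 0.07) and stood above Control in SOR (1.41 ± 0.09 and 1.11 ± 0.07), and the desaturase SCD rose by 0.65 ± 0.04.

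Of 21 genes of fatty acid oxidation and ketone synthesis 10 were higher and 8 lower. BDH1, an enzyme of ketone metabolism, fell (-1.90 ± 0.14). Of 5 tested medium-chain acyl-CoA synthetase and glycine conjugation genes 4 fell and none rose: ACSM3 from 392 ± 7.36 to 56.8 ± 2.85 CPM, ACSM1 (-3.50 ± 0.20), and the near-identical pair ACSM2A and ACSM2B, whose counts are uncertain, (-1.82 ± 0.18 and -1.72 ± 0.14). Of 24 glycolysis genes 16 were higher and 3 lower (median 0.37), with pyruvate kinase PKM up by 1.01 ± 0.05, and the liver glucose carrier SLC2A2 down (-1.78 ± 0.07). Of 12 gluconeogenesis and glycogen genes 6 were higher and 4 lower, with G6PC down (-1.21 ± 0.07) and the branching enzyme GBE1 up by 1.34 ± 0.11. Of 18 one-carbon genes 8 were lower and 6 higher: MAT2A, which makes S-adenosylmethionine, fell from 455 ± 5.37 to 108 ± 3.04 CPM and methionine synthase MTR (-1.35 ± 0.06). Urea cycle and nitrogen genes were higher in 4 and lower in 7 of 16, with argininosuccinate lyase ASL down (-1.27 ± 0.10), and aromatic amino acid genes higher in 3 and lower in 4 of 12 (5 higher without the first SOR+NOB library), with tyrosine aminotransferase TAT down (-1.93 ± 0.19).

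The remaining lists went both ways. Of 28 splicing factors 13 were lower and 8 higher, with HNRNPA1 and SRSF5 down (-1.06 ± 0.05 and -1.24 ± 0.05) and HNRNPC up by 1.28 ± 0.06. Of 27 ribosome biogenesis genes 9 were higher and 7 lower, with POLR1A, the large subunit of RNA polymerase I, down (-1.46 ± 0.07) and its initiation factor RRN3 up by 0.90 ± 0.06. Of 13 genes of IL6 family signalling 5 were higher and 6 lower. Interferon-stimulated genes were higher in 5 and lower in 8 of 20, with IRF1 up by 1.93 ± 0.14 and STAT2 down (-1.14 ± 0.08), and antigen-loading genes higher in 5 and lower in 5 of 16, with the immunoproteasome subunit PSMB9 up by 2.30 ± 0.24. Of 17 YAP targets 8 were lower and 4 higher: CTGF fell from 750.4 ± 20.2 to 93.2 ± 1.09 CPM, and CYR61 rose from 49.5 ± 1.73 to 120 ± 12.6 CPM although both single compounds lowered it (13.9 and 5.03 CPM). Of 17 Wnt genes 5 were higher and 7 lower, with the ligand BMP4 down (-2.54 ± 0.07) and the Wnt inhibitor APCDD1 (-2.42 ± 0.13). Genes of epithelial and mesenchymal state were higher in 7 and lower in 5 of 16, with the tight junction gene CLDN2 down (-3.21 ± 0.30) and the repressor ZEB1 up by 1.08 ± 0.09. Of 17 matrix and adhesion genes 10 were lower and 3 higher (1 higher without the first Control library or on the deposited FPKM), with the integrins ITGA2 and ITGAV down (-1.48 ± 0.08 and -1.44 ± 0.07). Hypoxia-inducible genes were higher in 7 and lower in 9 of 19, with VEGFA down (-0.38 ± 0.07) and P4HA2 up by 1.26 ± 0.08, and FOXO-linked genes other than DEPP1 included PIK3IP1, an inhibitor of PI3 kinase, up by 3.01 ± 0.18, and FOXO4 down (-1.96 ± 0.12), in a list of 3 higher and 6 lower of 12.

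**Figure D5:**
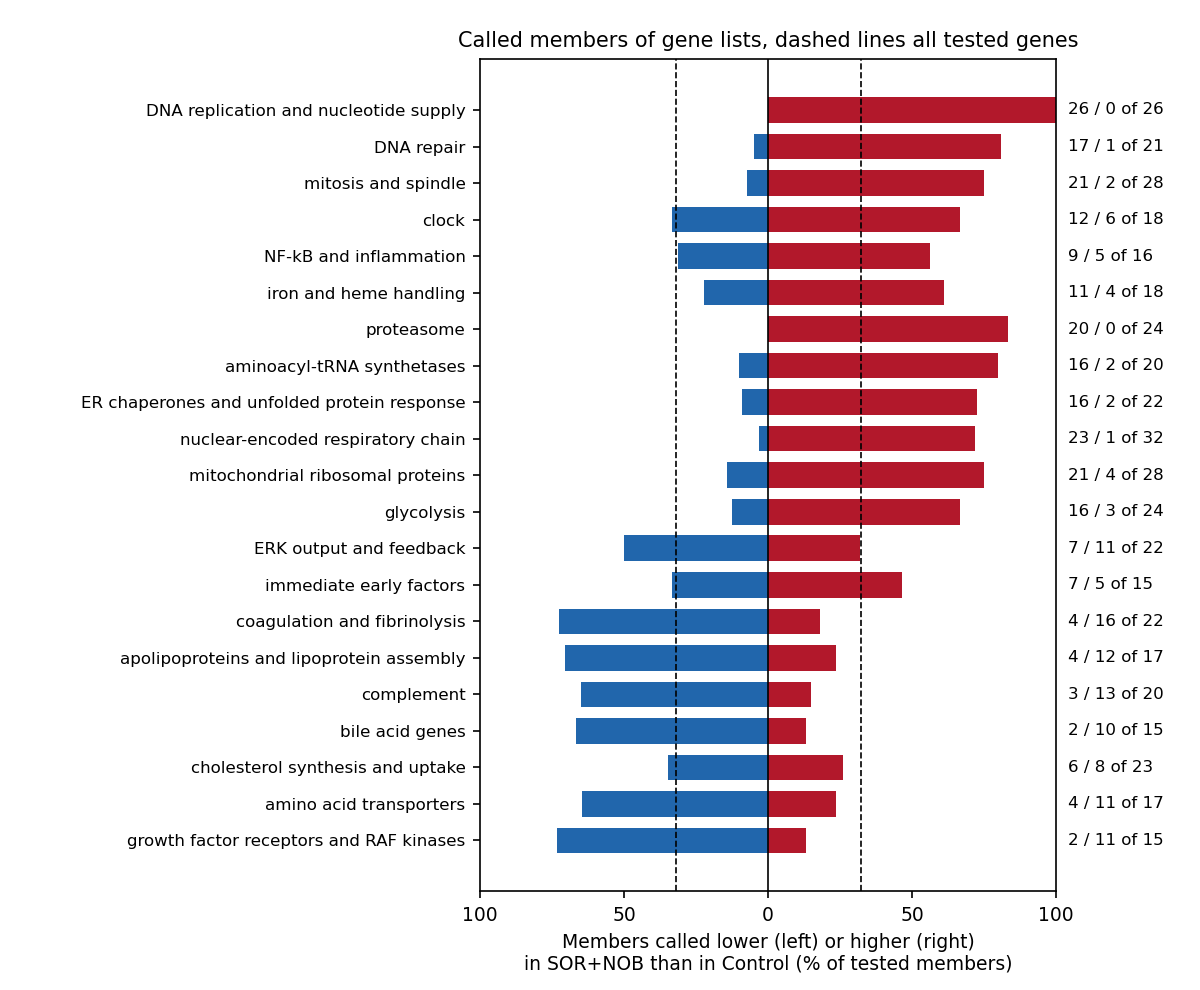
For 21 of the lists, the share of tested members called higher (red, right) and lower (blue, left) in SOR+NOB than in Control, with the counts at the right edge. Dashed lines mark 32.2% and 32%, the shares of all tested genes, and the replication, proteasome and respiratory chain lists reach far past the line on the right while coagulation, lipoprotein, complement and receptor lists do so on the left.

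A larger share of the tested long noncoding RNAs than of the coding genes was called lower. The share called lower was below that of coding genes in small nuclear and nucleolar RNAs (12.1% of 58, with 41.4% higher) and in pseudogenes (23.8% of 1233, with 17.9% higher). It was 35.1% of the 268 genes of no other class. Of 2665 long noncoding RNAs tested 285 were higher and 1005 lower (10.7% and 37.7%), with a median log2FC of -0.66, while of 12858 protein-coding genes 4939 were higher and 4047 lower (38.4% and 31.5%), with a median of 0.06. Long noncoding RNAs are less abundant than coding ones, so genes of like level were set side by side. Between 5 and 20 CPM, 43 of 241 long noncoding RNAs were higher and 139 lower, against 1129 and 877 of 2837 protein-coding genes. Between 2 and 5 CPM, 56 of 386 were higher and 194 lower, against 241 and 354 of 991. At lower levels the shares called lower lay closer together: 39.7% of 537 long noncoding RNAs and 33.8% of 624 protein-coding genes between 1 and 2 CPM, and 31% of 687 and 26.8% of 611 between 0.5 and 1 CPM. Their share of all counts was 1.26% ± 0.05 in Control and 0.915% ± 0.034 in SOR+NOB (SD, n = 3, exact two-sided permutation p = 0.1, the smallest possible), and the counts of calls without the first SOR+NOB library were 295 higher and 981 lower.

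Long intergenic transcripts made up 881 of the tested long noncoding RNAs, 85 higher and 368 lower, and antisense genes 1281, 148 higher and 451 lower. Whether reads were counted by strand is not given in the sources used here, so an antisense or overlapping gene cannot be told apart from its partner. AC020656.2, a long intergenic RNA (chr12:69326574-69331882), had 103.3, 115 and 110.1 CPM in Control and 6.76, 7.51 and 5.75 CPM in SOR+NOB. No library of either group came near the other, and NOB and SOR were close to Control (99.1 and 102.9 CPM), with differences of -3.89 ± 0.08 and -3.94 ± 0.09 from the combination. AC012065.3 (chr2:20586248-20586686) fell too and was 21.0 CPM in Control, 18.96 in SOR, 5.10 in NOB and 1.03 in SOR+NOB. Further falls were in AC254633.1 and AC096921.2 (-4.42 ± 0.33 and -3.88 ± 0.41). The largest rises were in AC027682.6, annotated as antisense (7 counts in Control and 587 in SOR+NOB), ALMS1-IT1, within an intron of ALMS1 (3.93 ± 0.35), AC005481.1 (3.67 ± 0.51) and AC016205.1 (3.39 ± 0.34).

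Coding genes differed by length as well. Protein-coding genes were put into 4 equal classes of length. In the class of shortest genes 13.7% rose and 12.6% fell by at least 2-fold, and in that of the longest 6.41% rose and 12.1% fell. Without the first SOR+NOB library, which was the poorer in short genes, the rises were 14.5% and 5.57%.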

How the data were processed

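RNA of HepG2 cells was sequenced in 12 libraries, 3 per treatment, after TRIzol extraction per the labels, whose library protocol names both poly(A) capture and rRNA removal as options. Per the submitters' processing notes, HISAT2 2.0.5 and featureCounts 1.5.0-p3 were used with GRCh38. Strand setting, filters and what was done with multi-mapping reads: not given in the sources used here. Raw counts per gene were deposited, and so were FPKM, which served only as an alternative.

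Groups came from the labels. Counts were fitted in R 4.3.3 with edgeR 4.0.16: filterByExpr by group, TMM scaling, 1 mean per group over all 12 libraries, which left 8 residual degrees of freedom (common coefficient of biological variation 8.44%), robust quasi-likelihood tests, two-sided, and Benjamini-Hochberg adjustment over the 17115 genes of a comparison. An adjusted p under 0.05 was called. CPM are counts scaled to the TMM-adjusted total. Comparisons of NOB, SOR and SOR+NOB with Control share the Control libraries, so their values are only set side by side. Fold changes with an interval are ratios of summed counts with exact 95% intervals, which like the floor of 3 counts cover counting error only, since reads carry no molecular identifiers. Counting precision rests on totals of 17945656 to 25669823 counts a library. The fit pools the spread of all groups. Pairs of SOR+NOB libraries differed by 5.58 to 27.6 times what sampling allows, and pairs in the other groups by 2.78 to 4.60 times. Sequences and motif counts come from RefSeq promoters (GRCh38.p14). Further letters were searched in the same 250 bases. TGACGTCA was in 0 of 19 clock promoters (1.765% of all promoters), and TCACNCCAC in 1 of 18 cholesterol promoters (0.875% of all). TGATGNAA was in 2 of 16 synthetase and 4 of 22 ATF4 pathway promoters (3.19% of all). TGCNCNC was in 5 of 8 promoters of the metal list. No motif count was tested. The edgeR fit of SOR+NOB against Control was run on simulated counts with known changes in few genes, far fewer than were called in the data.

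The comparison, the 59 lists, the 5 marker lists and the rule for naming genes were chosen with earlier results of these data known. That rule named the 12 genes that rose most and the 12 that fell most among called coding genes whose mean reached 2 CPM and whose groups did not overlap, the 6 largest gains and losses in CPM, the 4 largest rises and falls of long noncoding RNAs, up to 4 members of each list by smallest p, and a set panel. Named outside it, after their values were seen, were ARNTL, CCNB1, CDC45, CENPF, CLOCK, CRY2, DUSP5, EGR1, ID1, ID3, KIF20A, LYZ, MCM3, MCM6, MCM10, MT-ND4, MT-TC, MT-TN, MT-TP, MT1F, MTF1, NFKB2, NR1D2, PER3, POLD1, POLE, RELB, RORA, SLC30A10, SLC39A10, SMAD6, TK1 and TNFAIP3. Some genes that the rule takes, and 1 list, are not reported here. The 17 alternatives were DESeq2 1.42.0, RLE, upper quartile or no further scaling, no filter, only the 6 compared libraries, a replicate block, limma 3.58.1 on log2(FPKM + 1) and log2(FPKM + 0.1) for genes averaging 0.5 FPKM or more, a fit of protein-coding genes alone, no mitochondrially encoded genes, and leaving out each Control and SOR+NOB library. No sample was left out of the fit. Figures were drawn with matplotlib 3.10.9.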

Additional observations from a re-analysis of the deposited data

How the results depend on the processing

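The counts of called genes kept within 1.5 times under every alternative run (8972 to 11296 called, against 10981), except past 2-fold: 725 rose and 1047 fell with limma on log2(FPKM + 1), which shrinks the change of low genes, and 1111 rose and 1728 fell with protein-coding genes only, where fewer genes were tested. No gene called both ways changed direction. Leaving out 1 library gave 10077 to 11259 calls, 1582 to 1676 rises and 2596 to 2783 falls past 2-fold. With only the 6 compared libraries in the fit, so that NOB and SOR added nothing to the estimate of spread, 10030 genes were called. Upper quartile scaling moved the median log2FC of all genes from -0.02 to -0.10, and 44.5% of its calls were higher, against 50.1%.

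Same-numbered libraries did not deviate together (18 pairs, correlation -0.10 to 0.09, and 4 of 12 libraries closest to their own number), so the numbers were not used to pair them, and a fit with the replicate block called 10798 genes, 5399 higher and 5399 lower. Of 223 named genes 214 kept direction and call under every alternative. CCNB1, CENPF, PER3, POLD1 and POLE lost their call under some, MKI67 was called higher without the second SOR+NOB library (0.19), MT-ND4 lower without the first (-0.36) and SMAD6 higher with library totals only (0.34). MT-TP, not called, was -0.057 without the first SOR+NOB library and 0.21 without the second. The causes were not tested. Of 2172 recomputed list counts 2141 stayed within 1.5 times. Depth limits the genes near the filter, where 1 SOR+NOB library held 20138 genes with a count.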
